A study of Mus musculus with 12 samples.

Results

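The nuclear genes for the subunits of respiratory complexes III, IV and V, and for cytochrome c, were followed through the transition of naive mouse embryonic stem cells (ESCs) to formative epiblast-like cells (EpiLCs), with and without repression of pyruvate cycling enzymes. Members were all genes of the deposited annotation whose symbol starts with Uqcr, Atp5, Cox4, Cox5, Cox6, Cox7 or Cox8, with *Cyc1* and *Cycs* added and symbols containing -ps dropped. The rule took 48 of 57180 genes and used no expression value. Of these, 45 had at least 10 estimated counts over the 12 libraries and were tested, and 42 had a mean of at least 1 CPM (counts scaled to a common library size). The 3 members that were not tested were *Cox8b* with 2 counts, *Cox6c2* with 0 counts, which the annotation lists as a processed pseudogene, and a further gene ID named *Atp5po* with 0 counts. Most of the last 2 genes' sequence is also found in *Cox6c* and *Donson*, so reads could have been counted there.

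Complex III passes electrons from ubiquinol to cytochrome c, and complex IV (cytochrome c oxidase) passes them on to oxygen. Both pump protons across the inner mitochondrial membrane, and complex V (ATP synthase) lets the protons flow back through a rotating ring of c subunits to make ATP. Several small complex IV subunits exist as widely expressed forms and as forms best known from muscle, lung or testis, and post-implantation pluripotent cells are known to rely less on respiration than naive cells.

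RNA was sequenced from 4 groups of 3 libraries, all from the E14-dox-CRISPRi ESC line, a clone of the male 129/Ola line E14 with a doxycycline-inducible CRISPR interference system. Neg cells carry scramble guides and 3xKD cells carry guides against the transcription start sites of *Pcx*, *Me1* and *Me2*, which encode pyruvate carboxylase and the cytosolic and mitochondrial malic enzymes. Each line was profiled as ESCs in naive medium and as EpiLCs at day 2 of induction. The study kept all its cell lines under low oxygen. The study describes the profiled cells as treated with doxycycline, which the labels do not name for each library. The labels' cell type field names the line's state rather than the library's, so that groups were taken from the sample titles. Totals were 11221023 to 19652197 estimated counts per library. The 3 targeted genes were lower in 3xKD than in Neg, at −1.14 to −0.89 (log2 fold change) among ESCs and at −1.05 to −0.98 among EpiLCs. All 8 naive markers fell and all 7 formative markers rose from ESCs to EpiLCs in both lines. Naive markers were not level between lines, with 7 of 8 lower in 3xKD ESCs and 5 of 8 higher in 3xKD EpiLCs, and all 7 formative markers were lower in 3xKD EpiLCs. Markers of primitive endoderm, mesoderm, trophectoderm and neural cells (14 genes) had 2 higher and 1 lower in 3xKD ESCs and 1 lower in 3xKD EpiLCs. Between states 4 were higher and 2 lower in Neg, and 4 higher and 4 lower in 3xKD. The neural markers went from 1.99 to 3.37 CPM, summed, in Neg ESCs to 8.87 to 9.48 CPM in Neg EpiLCs, the mesoderm markers from 24.6 to 26.4 CPM to 18.8 to 20.7 CPM, and the trophectoderm markers from 3.03 to 3.77 CPM to 0.94 to 1.66 CPM. All 14 summed to 51.8 to 55.5 CPM in Neg ESCs, 58.4 to 64.1 in 3xKD ESCs, 55.9 to 62.5 in Neg EpiLCs and 52.5 to 55 in 3xKD EpiLCs. Their part in the values below was not tested.

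Promoter sequence was at hand for 33 of the 47 member symbols, as 250 bases before to 50 bases after the RefSeq start site (GRCm38.p6). The windows below run from 60 bases before the start site to 10 bases from it on. They are those of some of the members whose isoform balance or state change is described below. These are the *Cox6b* pair, the *Cox7a* pair, the c-ring trio, and *Cox5a*, *Cox8a* and *Uqcr10*. Windows of other members described below, such as *Cox7b*, *Cox6a1* and *Atp5f1c*, are not printed. Capitals mark CGCATGCG, the core of the NRF1 motif, or CCGGAAG, the ETS motif bound by GABP, on either strand. The YY1 motif, AAGATGGCG, starts with the last 3 letters of the ETS motif and is in none of these windows.
Cox6b1 (chr7:30626105-30626174, minus strand): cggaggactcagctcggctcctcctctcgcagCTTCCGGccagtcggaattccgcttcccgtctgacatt
Cox6b2 (chr7:4753085-4753154, minus strand): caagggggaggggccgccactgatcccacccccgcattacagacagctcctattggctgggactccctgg
Cox7a2 (chr9:79759844-79759913, minus strand): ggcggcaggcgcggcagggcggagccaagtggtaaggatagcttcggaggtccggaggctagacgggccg
Cox7a1 (chr7:30184111-30184180, plus strand): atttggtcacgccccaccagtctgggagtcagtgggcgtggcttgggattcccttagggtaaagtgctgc
Atp5mc1 (chr11:96075622-96075691, minus strand): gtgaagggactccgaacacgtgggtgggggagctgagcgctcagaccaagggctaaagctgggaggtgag
Atp5mc2 (chr15:102671038-102671107, minus strand): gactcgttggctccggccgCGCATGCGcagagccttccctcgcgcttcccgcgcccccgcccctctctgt
Atp5mc3 (chr2:73911317-73911386, minus strand): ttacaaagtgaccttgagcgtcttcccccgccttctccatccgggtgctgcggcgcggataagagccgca
Cox5a (chr9:57521172-57521241, plus strand): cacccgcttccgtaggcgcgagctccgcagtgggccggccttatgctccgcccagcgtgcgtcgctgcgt
Cox8a (chr19:7217607-7217676, minus strand): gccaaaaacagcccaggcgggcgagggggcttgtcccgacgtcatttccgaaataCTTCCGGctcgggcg
Uqcr10 (chr11:4704335-4704404, minus strand): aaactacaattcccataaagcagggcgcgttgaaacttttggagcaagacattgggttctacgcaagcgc

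Over the whole 300-base promoters, the NRF1 core was in 8 of 33 members (24.2%), beside 2.07% of all 27017 genes with a promoter and 4.25% of the 10772 of them with a mean of at least 1 CPM. The ETS motif was in 10 of 33 members (30.3%, beside 9.93% and 19.6%), and the YY1 motif in 2 (6.06%, beside 1.64% and 3.43%). Promoters of *Cox7a1*, *Cox6b2*, *Cox7b2* and *Cox8b* held 7, 10, 10 and 2 CG dinucleotides in 300 bases, against a members' median of 19. Among widely expressed subunits, *Cox5a* held 35, *Cox6b1* held 17 and *Cox7b* held only 5. These matches describe letters in a window and no binding was measured.

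Per unit of transcript length, the catalytic F1 beta subunit *Atp5f1b* had the highest level of all members in Neg ESCs, at 789 ± 151 TPM (abundance per transcript length, SD, n = 3). The small complex IV subunits *Cox7b* (412 ± 55.8 TPM), *Cox7c* (294 ± 43.7 TPM) and *Cox8a* (285 ± 58.8 TPM) followed, with SDs that overlapped between *Cox7c*, *Cox8a* and the F1 alpha subunit *Atp5f1a* (266 ± 53.0 TPM). At the other end stood *Cox4i2* (0.861 ± 0.496 TPM), *Cox8c* (0.222 ± 0.209 TPM) and *Cox6a2* (0.168 ± 0.0865 TPM). *Cox7b2* was at 3.85 ± 1.74 TPM, so these 4 tissue forms of complex IV were far below their widely expressed counterparts in every group. Members are short, with a median effective length of 302 bases against 1884 for all genes above 1 CPM, and the TPM of short transcripts depends on the fragment length that the quantifier assumed.

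Further levels are in CPM, scaled between libraries by TMM, unless TPM is named. Summed over complex IV, the level was 1137, 1096 and 1083 CPM in the 3 Neg ESC libraries and 792, 753 and 743 CPM in Neg EpiLCs, lower in every EpiLC library. In bulk RNA, fewer cells of a type and less RNA per cell cannot be told apart. The 3xKD ESCs held 1282, 1266 and 1234 CPM, above all Neg ESCs, and the 3xKD EpiLCs 834, 843 and 915 CPM, above all Neg EpiLCs. Complex V summed to 3810 ± 40.2 CPM in Neg ESCs (SD, n = 3), 4415 ± 30.4 in 3xKD ESCs, 3370 ± 88.4 in Neg EpiLCs and 3414 ± 53.6 in 3xKD EpiLCs. Its libraries were higher in 3xKD than in Neg as ESCs and overlapped as EpiLCs. Complex III with cytochrome c followed complex V, at 902 ± 1.47, 1020 ± 9.61, 757 ± 20.5 and 764 ± 15.6 CPM in the same order of groups.

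**Figure D1:**
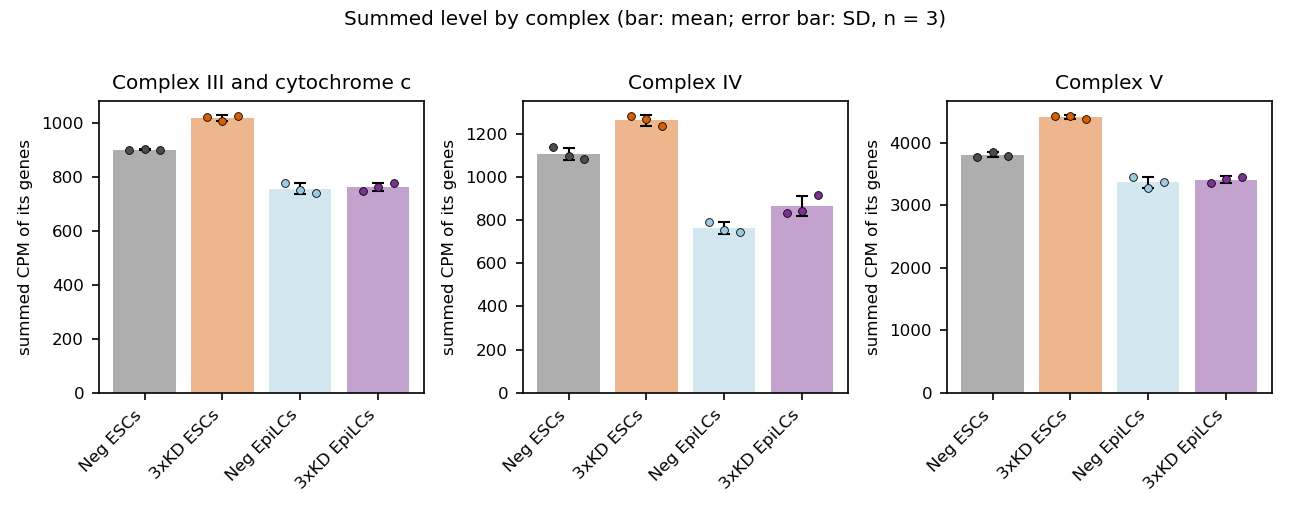
Summed CPM of the member genes of each complex (y axis, from 0) in the 4 groups (x axis); points are libraries, bars are means and error bars are SD (n = 3). In all 3 panels 3xKD ESCs are highest, and the 2 EpiLC groups overlap for complexes III and V but not for complex IV.

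Summed TPM did not separate the states in the same way, at 5924 to 7892 in Neg ESCs and 6025 to 6628 in Neg EpiLCs. On that scale the median of all genes above 1 CPM itself moved by 0.23 (log2) from Neg ESCs to Neg EpiLCs while the members' median moved by −0.05, a difference of −0.28. The 7SL RNA gene *Rn7s1* alone took between 15.2% and 29.7% of a library's TPM. In TPM relative to all genes, the other comparisons gave −0.44 for EpiLCs against ESCs in 3xKD, 0.18 for 3xKD against Neg in ESCs and 0.007 in EpiLCs.

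**Figure D2:**
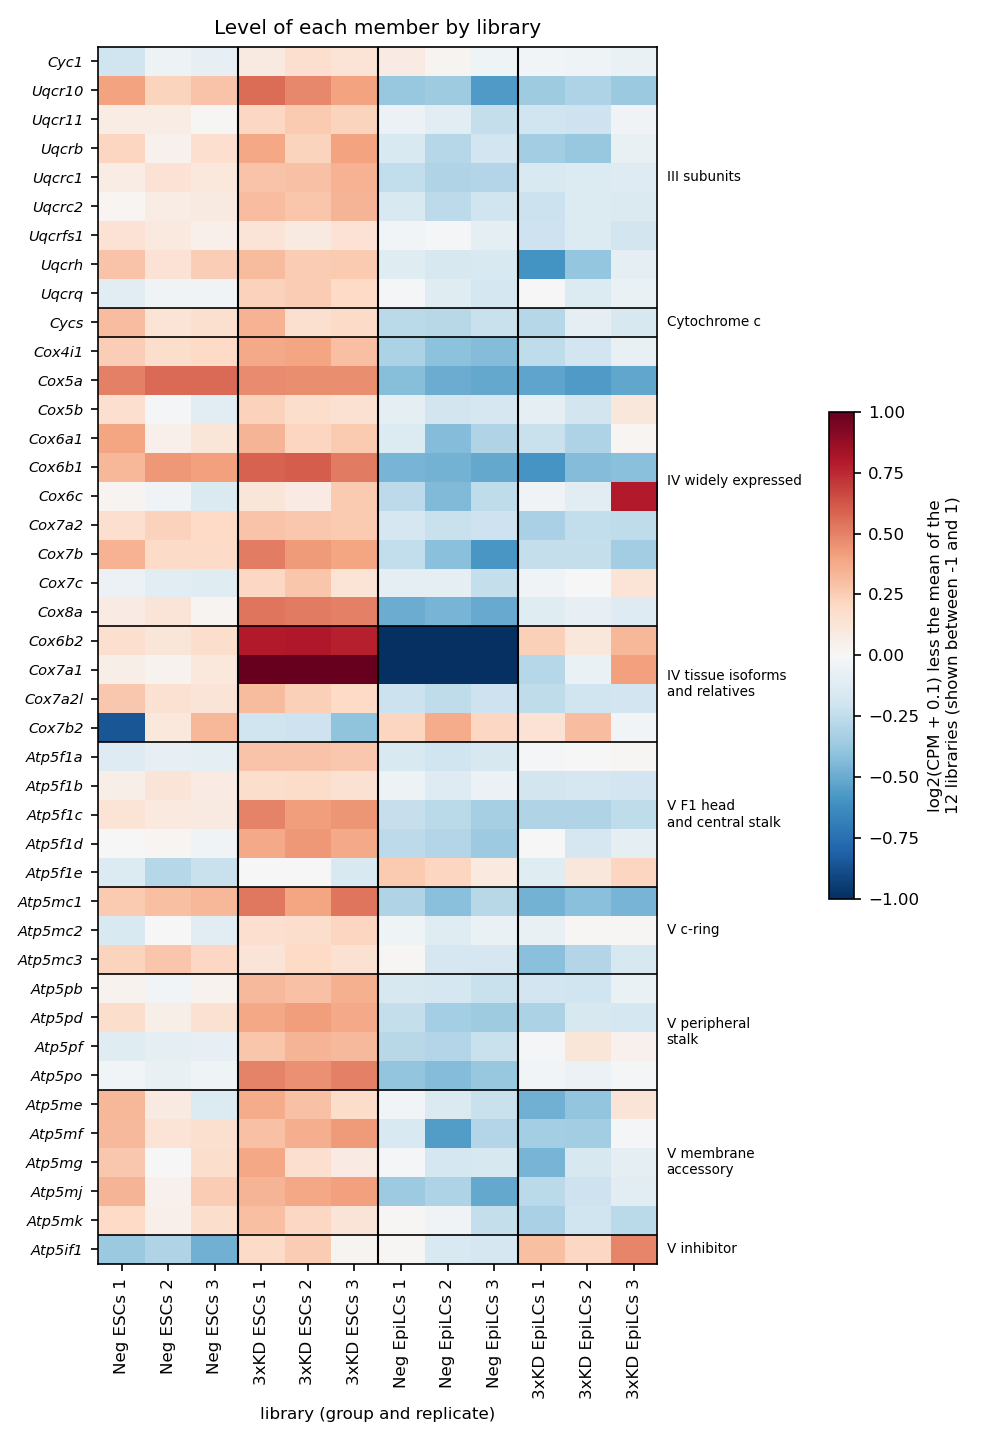
Level of each of the 42 members above 1 CPM, ordered by role (rows), in the 12 libraries (columns), as log2(CPM + 0.1) less the mean over libraries; red is above and blue below that mean. ESC columns are mostly red and EpiLC columns mostly blue, while *Atp5if1*, *Atp5f1e* and *Cyc1* are higher in Neg EpiLCs than in Neg ESCs.

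The first comparison asked how these genes moved between pluripotent states in control cells. From Neg ESCs to Neg EpiLCs, 29 of the 45 members tested fell and 2 rose (edgeR quasi-likelihood test, Benjamini-Hochberg adjusted p under 0.01), where 18.2% of all 25446 genes tested fell and 17.5% rose. Among the 42 members above 1 CPM, 28 fell and 2 rose, beside 28.9% and 26.9% of the 15032 genes above that level. With a limit of 0.58 on the absolute log2 fold change as well, 10 members were lower and 0 higher, beside 11% and 9.78% of all genes. The members' median log2 fold change was −0.34 and that of all genes tested 0.01. Genes for complex I (Nduf symbols) had 15 of 49 lower and 5 higher, and cytosolic ribosomal protein genes 16 of 83 lower and 7 higher, with medians of −0.10 and −0.04.

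Complex IV carried the largest falls. Of its 10 widely expressed subunits, 7 fell and 0 rose in Neg cells, with a median log2 fold change of −0.52. *Cox5a*, a subunit on the matrix side of complex IV, was at 146, 152 and 152 CPM in Neg ESCs and at 76.5, 72.8 and 71.9 CPM in Neg EpiLCs. Its log2 fold change in the 3xKD line was −1.01 ± 0.035 (SE, adjusted p = 5.37e-13), from 143, 142 and 142 CPM to 71.1, 69.4 and 71.6 CPM. Both lines thus had about the same level in each state, and the difference between the lines' changes was 0.02 (95% interval −0.08 to 0.12).

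*Cox6b1*, which joins the monomers of the complex IV dimer on the intermembrane side, stood at 78.5, 84.2 and 82.8 CPM in Neg ESCs and at 45.2, 44.9 and 43.8 CPM in Neg EpiLCs. In 3xKD it went from 93.8, 94.8 and 89.6 CPM to 41.5, 46.2 and 46.8 CPM, a log2 fold change of −1.05 ± 0.049 (SE, adjusted p = 2.1e-11). Over 16 alternative settings the value in 3xKD ran from −1.07 to −0.63, and the call held in all of them. *Cox7b* fell by 0.65 ± 0.069 in Neg (adjusted p = 5.85e-07) and by 0.72 ± 0.068 in 3xKD, from levels of 80.7 to 101 CPM in ESCs to levels of 47.3 to 59.97 CPM in EpiLCs. *Cox8a*, a small membrane subunit, and *Cox4i1*, a regulatory subunit, fell by 0.57 ± 0.034 and 0.59 ± 0.047 in Neg cells (adjusted p = 4.56e-10 and 1.41e-08). No ESC library of either line overlapped an EpiLC library for these 5 genes.

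*Cox6a1*, a membrane-spanning subunit, fell by 0.48 ± 0.093 in Neg (adjusted p = 0.000436) with more spread between libraries, from 73.2 to 92.9 CPM down to 52.4 to 64.4 CPM. The 3 widely expressed complex IV subunits that did not pass in Neg cells lay between −0.27 and −0.05. *Cox6c* was among them, and its level in 3xKD EpiLCs rested on replicate 3, with 27.6, 26.0 and 49.0 CPM. It was named after its values were seen.

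Among complex III genes, 6 of 9 fell and 0 rose in Neg cells, and all 9 fell in 3xKD. The smallest of these, that of *Cyc1* (−0.18 ± 0.042, adjusted p = 0.0025), was lost with library size alone, with upper-quartile factors, with transcript-length offsets, and without 3xKD ESCs replicate 2 or 3 or 3xKD EpiLCs replicate 3 (values −0.24 to −0.10). *Uqcr10*, a small membrane subunit, was at 67.8, 59.9 and 62.6 CPM in Neg ESCs and at 39.4, 40.2 and 34.8 CPM in Neg EpiLCs (log2 fold change −0.73 ± 0.062, adjusted p = 3.49e-08). In 3xKD it fell by 0.83 ± 0.061 (adjusted p = 7.89e-09). *Cyc1*, the heme-bearing cytochrome c1, differed from it, with 125, 138 and 135 CPM in Neg ESCs and 152, 146 and 139 CPM in Neg EpiLCs (0.13 ± 0.042, adjusted p = 0.0165). All Neg EpiLC libraries were above all Neg ESC libraries for *Cyc1*, by a margin that did not pass the threshold, and DESeq2 and 5 further settings did call it.

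Cytochrome c itself, *Cycs*, which shuttles electrons from complex III to complex IV, was at 73.5, 65.1 and 66.3 CPM in Neg ESCs and at 49.3, 49.0 and 50.9 CPM in Neg EpiLCs. It fell by 0.45 ± 0.062 in Neg (adjusted p = 1.09e-05) and by 0.41 ± 0.061 in 3xKD (adjusted p = 3.02e-05). Transcripts of its near-identical copies held 3674 counts beside its own 11276, or 24.6% of the total, so that its level is uncertain by the way reads were split between them. For every other tested member such copies held at most 1.82%.

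Complex V moved less and less evenly. In the F1 head and central stalk, 3 of 5 genes fell in Neg cells and 1 rose. The exception was *Atp5f1e*, the epsilon subunit of the central stalk, at 40.8, 36.6 and 38.3 CPM in Neg ESCs and 53.7, 52.0 and 47.8 CPM in Neg EpiLCs (0.41 ± 0.078, adjusted p = 0.000314). *Atp5f1c*, the gamma subunit that turns inside the head, fell from 120, 117 and 116 CPM to 92.8, 90.1 and 86.4 CPM (−0.39 ± 0.037, adjusted p = 1.4e-07). *Atp5f1a* did not pass in Neg cells, at 751, 773 and 767 CPM against 739, 712 and 732 CPM, although the groups did not overlap. All 4 peripheral stalk genes and 2 of the 5 small membrane subunit genes fell as well, by 0.17 to 0.61. The smaller of these included *Atp5pb* (−0.20 ± 0.039, adjusted p = 0.000427), a call lost with transcript-length offsets or upper-quartile factors (−0.14 and −0.12).

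*Atp5if1*, the inhibitor that binds ATP synthase and stops it from running backwards, was the other member that rose. It stood at 38.3, 40.2 and 35.5 CPM in Neg ESCs and at 50.01, 44.7 and 44.1 CPM in Neg EpiLCs (0.29 ± 0.079, adjusted p = 0.0065). That call was lost with transcript-length offsets, with library size alone, with the replicate block, and without Neg ESCs replicate 1 or 3 or Neg EpiLCs replicate 1, over which the value was 0.24 to 0.34.

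In the 3xKD line, 37 of 45 members fell from ESCs to EpiLCs and 0 rose, beside 17.9% and 15.9% of all genes tested. Of the 42 members above 1 CPM, 36 fell and 0 rose, beside 28.8% and 24.6% of the genes above that level. With the fold limit, 13 were lower and 0 higher, beside 9.32% and 9.42%. The members' median was −0.47. All 5 small membrane subunit genes and all 3 c-ring genes of complex V fell, by 0.45 to 0.59 and by 0.20 to 0.94. *Atp5f1c* fell by 0.74 ± 0.036 (adjusted p = 4.23e-11), from 154, 146 and 148 CPM to 88.5, 88.4 and 91.4 CPM. *Atp5f1a* fell by 0.29 ± 0.029 (adjusted p = 4.47e-07) and *Atp5pb*, a peripheral stalk subunit, by 0.47 ± 0.039 (adjusted p = 2.97e-08). Neither *Atp5if1* (0.17 ± 0.075, adjusted p = 0.075) nor *Atp5f1e* (0.12 ± 0.077, adjusted p = 0.219) passed here. The 2 lines share no library in this pair of comparisons.

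**Figure D3:**
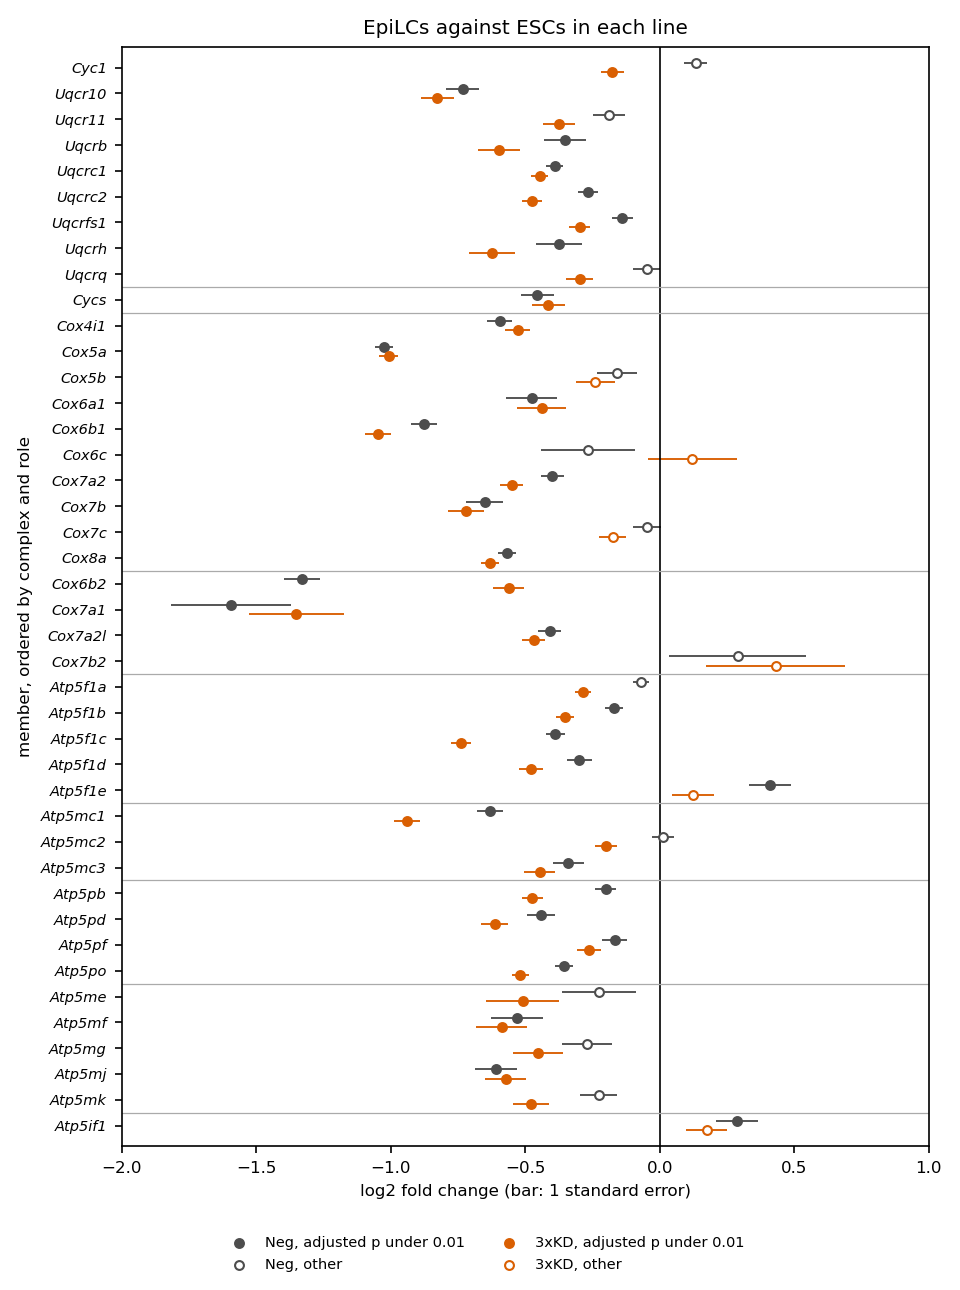
Log2 fold change of each member above 1 CPM from ESCs to EpiLCs (x axis) in Neg (grey) and 3xKD (orange); bars are 1 standard error and filled points have an adjusted p under 0.01. Nearly all points lie left of 0. *Cox5a* lies near −1 in both lines, and *Cox6b1* lies at −0.88 in Neg and −1.05 in 3xKD. *Atp5f1e* and *Atp5if1* are the filled points to the right in Neg.

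The next comparisons set 3xKD against Neg in each state. The lines were transfected with their guides separately, and no library is labelled as an untreated control of its own line. Effects of the guides and other differences between the lines therefore cannot be told apart. The 3xKD effect below means the difference between the lines. In ESCs, 21 of 45 members were higher in 3xKD than in Neg and 0 were lower, beside 15.6% of all genes tested that were higher and 16% that were lower. Of the 42 above 1 CPM, 19 were higher and 0 lower, beside 25.1% and 26.1%. With the fold limit, 4 were higher and 0 lower, beside 8.5% and 6.76%, and those 4 were the tissue forms *Cox4i2*, *Cox6a2*, *Cox6b2* and *Cox7a1*. The members' median log2 fold change was 0.19 (all genes 0.03), and 42 of 45 lay above 0. Complex I genes had 12 of 49 higher and 2 lower with a median of 0.18, and cytosolic ribosomal protein genes 21 of 83 higher and 2 lower with a median of 0.12.

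Within complex V, all 4 peripheral stalk genes tested rose in 3xKD ESCs, by 0.27 to 0.53, as did 3 of 5 F1 genes, 2 of 3 c-ring genes and the inhibitor, while 0 of the 5 small membrane subunit genes passed. The most raised peripheral stalk genes, *Atp5po* and *Atp5pf*, lie on chromosome 16, where the other genes above 1 CPM had a median of 0.30, as described below. *Atp5f1a* went from 751, 773 and 767 CPM to 999, 997 and 988 CPM (0.38 ± 0.029, adjusted p = 1.9e-08). *Atp5f1c* went from 120, 117 and 116 CPM to 154, 146 and 148 CPM (0.35 ± 0.036, adjusted p = 6.49e-07). *Atp5pb* rose from 172, 164 and 172 CPM to 210, 205 and 214 CPM (0.31 ± 0.039, adjusted p = 5.21e-06). The groups did not overlap for these 3 genes. *Atp5f1b*, the most abundant member, was at 1699 to 1787 CPM in Neg and 1814 to 1857 CPM in 3xKD, which did not pass (adjusted p = 0.0639). It was named after its values were seen.

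*Atp5if1* was higher in 3xKD in both states. Its libraries were at 56.6, 59.3 and 50.7 CPM in 3xKD ESCs against 38.3, 40.2 and 35.5 CPM in Neg (0.55 ± 0.078, adjusted p = 2.13e-05). In EpiLCs they were at 61.1, 57.4 and 69.5 CPM against 50.01, 44.7 and 44.1 CPM (0.44 ± 0.076, adjusted p = 0.000185). No 3xKD library of either state overlapped the Neg libraries of that state.

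Complex III had 4 of 9 genes higher in 3xKD ESCs, at most by 0.28, and *Cyc1* was one of them (152, 161 and 157 CPM, 0.24 ± 0.042, adjusted p = 0.000201). *Cycs* did not pass in either state (0.04 ± 0.061 and 0.08 ± 0.063). Of the widely expressed complex IV subunits, 3 of 10 rose in 3xKD ESCs. *Cox8a* rose from 136, 141 and 131 CPM to 187, 184 and 183 CPM (0.44 ± 0.033, adjusted p = 1.49e-08), and in EpiLCs from 91.3, 93.1 and 90.7 CPM to 118, 121 and 117 CPM (0.38 ± 0.034, adjusted p = 1.5e-07). *Cox5a* was at −0.08 and −0.06, with 95% intervals of −0.14 to −0.01 and −0.13 to 0.01. *Cox6b1* was called higher in ESCs (0.18 ± 0.047, adjusted p = 0.00541), but with transcript-length offsets its value turned to −0.09 (adjusted p = 0.606). The call was also lost without 3xKD ESCs replicate 1 or 2 or Neg ESCs replicate 1 or 3 (0.15 to 0.20).

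**Figure D4:**
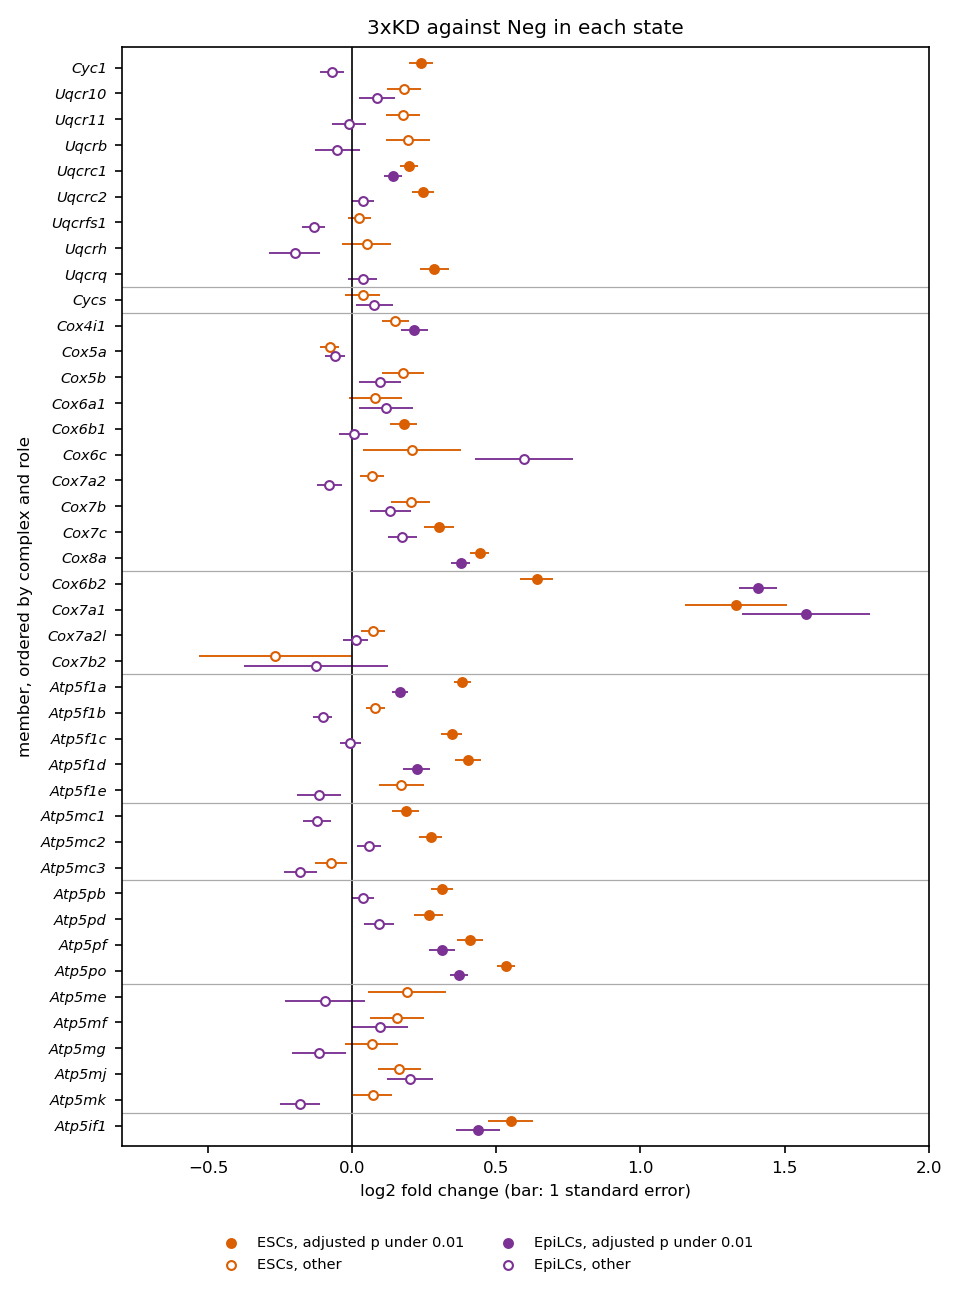
Log2 fold change of each member above 1 CPM in 3xKD against Neg (x axis) in ESCs (orange) and EpiLCs (purple); bars are 1 standard error and filled points have an adjusted p under 0.01. Filled points are all right of 0, *Cox6b2* and *Cox7a1* lie farthest right, and most complex V genes lie nearer to 0 in EpiLCs than in ESCs.

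In EpiLCs, 10 of 45 members were higher in 3xKD and 0 lower, beside 14.3% and 15.6% of all genes tested. All 10 were among the 42 members above 1 CPM, where 23.2% and 25.9% of all such genes were higher and lower. The count of higher members is thus near the background, while that of lower members, 0, is below it. With the fold limit, *Cox6b2* and *Cox7a1* were higher and 0 members lower, beside 7.88% and 5.35%. The members' median was 0.08, with 29 of 45 above 0. Besides these 2 genes, the named members that were higher were *Atp5f1a* (0.17 ± 0.029, adjusted p = 0.000207), *Atp5if1*, *Atp5po*, *Cox8a* and *Cox4i1* (0.22 ± 0.047, adjusted p = 0.00132). For *Cox4i1* the libraries were at 114, 119 and 129 CPM against 109, 102 and 100 CPM, and its call was lost with only the groups compared (adjusted p = 0.0111). The call on *Atp5f1a* was lost with transcript-length offsets (0.14, adjusted p = 0.025).

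The difference of the 3xKD effect between the states was tested directly, as an interaction over all 12 libraries. It passed for 6 of 45 members, of which 5 were lower and 1 higher in EpiLCs than in ESCs, beside 5.27% and 4.76% of all genes tested. All 6 were among the 42 members above 1 CPM, where 8.89% of such genes were lower and 7.95% higher, so the count of 6 is near the background. The 5 were *Atp5f1c* (−0.35 ± 0.051, adjusted p = 0.000132), *Cyc1* (−0.31 ± 0.060, adjusted p = 0.00152), *Atp5mc1* (−0.31 ± 0.068, adjusted p = 0.00416), *Atp5pb* (−0.27 ± 0.055, adjusted p = 0.00217) and *Atp5f1a* (−0.22 ± 0.041, adjusted p = 0.00142). *Atp5f1c*, with the largest of these 5 differences, was higher in 3xKD as ESCs. As EpiLCs it was at 88.5, 88.4 and 91.4 CPM in 3xKD against 92.8, 90.1 and 86.4 CPM in Neg, where the groups overlapped. The 1 member in the other direction was *Cox6b2* (0.77 ± 0.088, adjusted p = 1.25e-05). The median over members was −0.16, and 35 of 45 lay below 0. Complex I genes had a median of −0.13 with 41 of 49 below 0, and cytosolic ribosomal protein genes a median of −0.07 with 64 of 83 below 0. The count of 6 was 2 with transcript-length offsets or with library size alone, 10 with upper-quartile factors, 12 without 3xKD EpiLCs replicate 3 and 10 without Neg EpiLCs replicate 2.

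Within complex IV, the tissue forms *Cox6b2* and *Cox7a1* were called higher in 3xKD than in Neg in both states. *Cox6b2*, the form of *Cox6b* best known from testis, was at 29.7, 28.7 and 29.8 CPM in Neg ESCs and 45.9, 46.2 and 45.4 CPM in 3xKD ESCs (0.64 ± 0.059, adjusted p = 1.72e-07). In EpiLCs it was at 12.3, 11.2 and 11.6 CPM in Neg and 31.2, 28.6 and 33.3 CPM in 3xKD (1.41 ± 0.066, adjusted p = 8e-11). It fell between states in both lines, by 1.33 ± 0.066 in Neg and by 0.56 ± 0.058 in 3xKD, so that 3xKD EpiLCs held about the level of Neg ESCs. As a share of *Cox6b* TPM, *Cox6b2* made up 23.3%, 23.9% and 23.7% in Neg ESCs and 33.4%, 32.9% and 32.6% in 3xKD ESCs. In EpiLCs the shares were 23.4%, 16.9% and 16.3% in Neg and 35.4%, 35.8% and 36.4% in 3xKD. The groups did not overlap in either state, with the smallest p that 3 against 3 libraries allow (exact permutation test, two-sided, p = 0.1). The exact test compared 20 such shares in all and cannot pass any threshold after adjustment. The shares depend on the TPM scale, which differed from CPM for *Cox6b1*. Its mean in Neg and 3xKD ESCs was 219 and 190 TPM, but 81.8 and 92.7 CPM. Neg EpiLCs library 1 had the outlying share of 23.4% although its CPM of *Cox6b1* and *Cox6b2* was close to that of the other libraries. In the start windows above, *Cox6b1* holds an ETS motif and *Cox6b2* holds none.

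*Cox7a1*, the heart and muscle form of *Cox7a*, rose in 3xKD in both states from a low level. Its libraries were at 3.01, 2.96 and 3.11 CPM in Neg ESCs and 6.64, 7.62 and 8.69 CPM in 3xKD ESCs (1.33 ± 0.18, adjusted p = 1.07e-05). In EpiLCs they were at 1.11, 0.873 and 1.01 CPM in Neg and 2.36, 2.75 and 3.87 CPM in 3xKD (1.57 ± 0.22, adjusted p = 2.07e-05). The widely expressed *Cox7a2* did not pass in either state (0.07 ± 0.042 and −0.08 ± 0.043), and neither did *Cox7a2l*, which joins complexes III and IV into supercomplexes (0.07 ± 0.042 and 0.01 ± 0.043). The share of *Cox7a1* in *Cox7a* TPM, with *Cox7a2l* counted in, was 5.03% ± 0.013 in Neg ESCs, 10.9% ± 2.09 in 3xKD ESCs, 2.24% ± 0.30 in Neg EpiLCs and 6.32% ± 1.53 in 3xKD EpiLCs (SD, n = 3). Between states *Cox7a1* fell by 1.59 ± 0.22 in Neg and by 1.35 ± 0.18 in 3xKD, while *Cox7a2* and *Cox7a2l* fell by 0.40 ± 0.043 and 0.41 ± 0.043 in Neg.

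The remaining tissue forms were near the limit of detection. *Cox4i2*, the lung form linked to low oxygen, had 4, 13 and 13 counts in the Neg ESC libraries and 37, 40 and 32 counts in 3xKD ESCs (1.79 ± 0.36, adjusted p = 0.00074). In EpiLCs it had 0, 2 and 1 counts in Neg and 4, 3 and 5 counts in 3xKD, which did not pass (adjusted p = 0.0501). Its share of *Cox4i* TPM never went above 1.39%. *Cox6a2*, the muscle form of *Cox6a*, had 1, 1 and 4 counts in Neg ESCs and 8, 15 and 7 counts in 3xKD ESCs. The call on it (adjusted p = 0.00664) was lost with DESeq2, with only the groups compared, with the replicate block, with transcript-length offsets, and without 3xKD ESCs replicate 2 or Neg ESCs replicate 1 or 2. *Cox7b2* was at 0.975 to 2.42 CPM and *Cox8c* at 0 to 0.496 CPM over all libraries, and neither passed in any comparison. *Cox8b* had 2 counts in all, 1 in each of 2 3xKD libraries. Counting error alone is large at these levels.

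**Figure D5:**
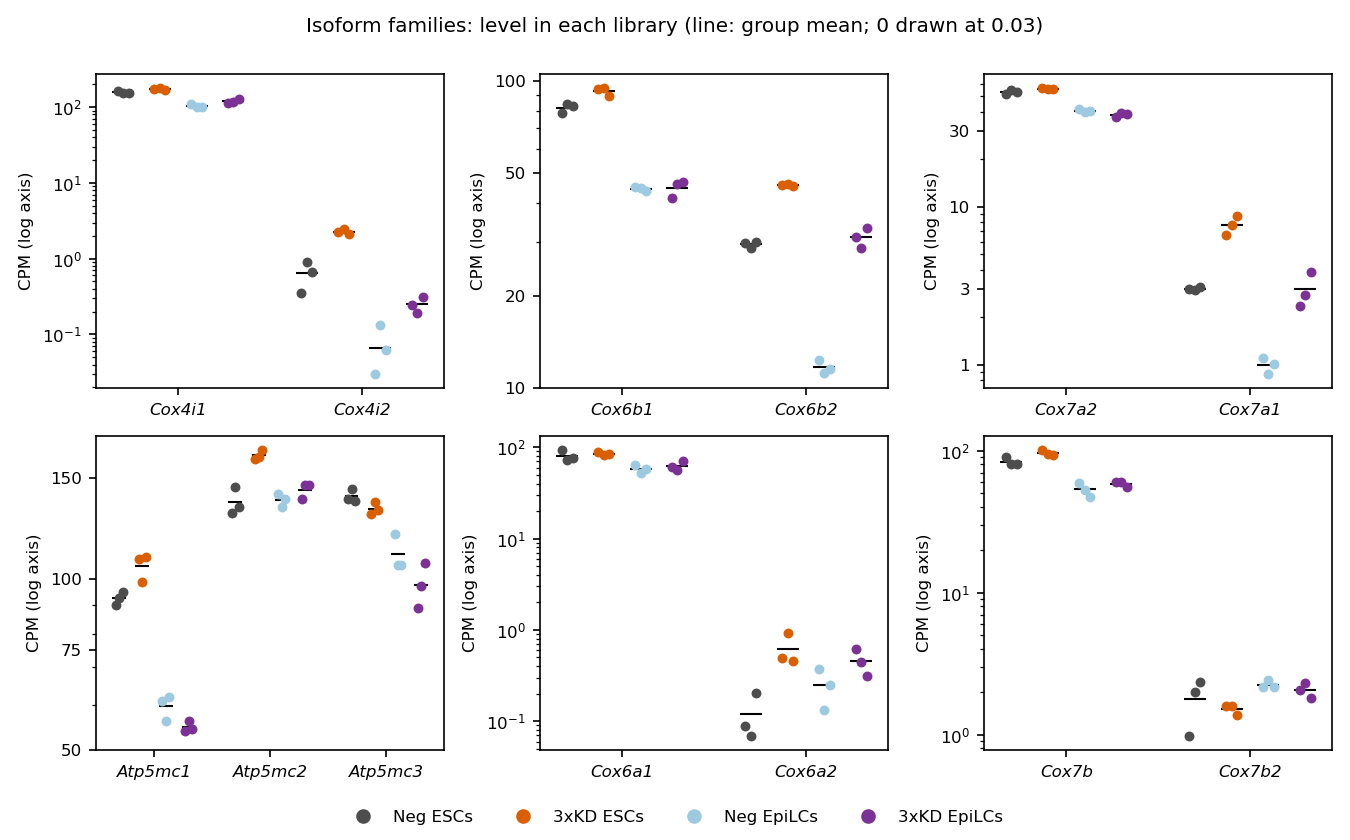
CPM (y axis, log scale) of the members of 6 isoform families in each library, coloured by group; the line is the group mean and a level of 0 is drawn at 0.03. *Cox6b2*, *Cox7a1* and *Cox4i2* are higher in 3xKD than in Neg in each state, while *Cox4i1*, *Cox6b1* and *Cox7a2* differ more between states than between lines. For *Cox4i2* the difference in EpiLCs rests on few counts and did not pass.

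The c-ring is made from 3 genes, *Atp5mc1*, *Atp5mc2* and *Atp5mc3*, which encode the same mature protein with different import signals. *Atp5mc1* was at 90.1, 92.6 and 94.7 CPM in Neg ESCs and 61.0, 56.3 and 62.0 CPM in Neg EpiLCs (−0.63 ± 0.048, adjusted p = 9.45e-09), and fell by 0.94 ± 0.048 in 3xKD (adjusted p = 7.07e-11). *Atp5mc2* was level in Neg, at 130, 145 and 134 CPM against 141, 133 and 138 CPM (0.01, 95% interval −0.07 to 0.09), and fell by 0.20 ± 0.041 in 3xKD (adjusted p = 0.00069), a call lost with transcript-length offsets or upper-quartile factors. *Atp5mc3* fell by 0.34 ± 0.058 in Neg (adjusted p = 0.000109) and by 0.45 ± 0.058 in 3xKD. *Atp5mc1* thus gave 26.4% ± 0.77 of c-ring TPM in Neg ESCs and 20.3% ± 0.71 in Neg EpiLCs, and *Atp5mc2* gave 36.1% ± 0.86 and 44.0% ± 0.78 (SD, n = 3). The same held in 3xKD, with 27.1% ± 1.33 and 19.5% ± 0.59 for *Atp5mc1* and 40.1% ± 0.38 and 47.7% ± 0.88 for *Atp5mc2*. The libraries of the 2 states did not overlap for either share in either line (exact permutation test, p = 0.1, the smallest possible).

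In 3xKD against Neg ESCs, *Atp5mc2* rose by 0.27 ± 0.041 (adjusted p = 4.25e-05) and *Atp5mc1* by 0.19 ± 0.047 (adjusted p = 0.00372), while *Atp5mc3* was at −0.07 ± 0.057. The call on *Atp5mc1* was lost with transcript-length offsets and without 3xKD ESCs replicate 3 or Neg ESCs replicate 1 or 2 (values 0.16 to 0.19). In EpiLCs none of the 3 passed (−0.12, 0.06 and −0.18). *Atp5mc3* there was at 89.0, 96.9 and 106 CPM in 3xKD and 120, 106 and 106 CPM in Neg, and was called lower (−0.25) without 3xKD EpiLCs replicate 3. Summed, the c-ring stood at 368 ± 11.5 CPM in Neg ESCs, 402 ± 5.97 in 3xKD ESCs, 307 ± 13.1 in Neg EpiLCs and 296 ± 13.4 in 3xKD EpiLCs. Of the 3 start windows printed above, only that of *Atp5mc2* holds the NRF1 core.

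*Atp5po* and *Atp5pf*, subunits of the peripheral stalk that holds the head still, lie on chromosome 16. *Atp5po* was at 165, 159 and 163 CPM in Neg ESCs and 236, 230 and 237 CPM in 3xKD ESCs (0.53 ± 0.031, adjusted p = 8.34e-10), and in EpiLCs at 127, 124 and 129 CPM against 164, 161 and 166 CPM (0.37 ± 0.032, adjusted p = 7.45e-08). *Atp5pf* was higher by 0.41 ± 0.045 in ESCs and 0.31 ± 0.046 in EpiLCs, and was named after its values were seen. The 452 other chromosome 16 genes above 1 CPM had a median of 0.30 in both states, with 48.7% of them higher in 3xKD ESCs and 50.2% in 3xKD EpiLCs. Medians of the 18 other chromosomes that hold a member lay between −0.05 and 0.06. The part of the chromosome in the values of these 2 members was not tested. Between states chromosome 16 was at −0.10 in Neg and −0.09 in 3xKD.

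Length moved a little with the comparisons. Other genes with an effective length up to 700 bases had medians of 0.08 and 0.05 for 3xKD against Neg in ESCs and EpiLCs, and of −0.06 and −0.10 for EpiLCs against ESCs in Neg and 3xKD. The 34 short members had medians of 0.18, 0.08, −0.35 and −0.49 in the same order, and the 8 long members 0.22, 0.03, −0.23 and −0.46. Its part in the members' values was not tested.

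Genes around these complexes were counted in the same way, with no test against the subunits, and the shares of all genes given above are their background. Of 25 assembly factors of complex IV tested, 4 were higher and 9 lower in 3xKD than in Neg ESCs (median −0.21). In EpiLCs 4 were higher and 11 lower in 3xKD (median −0.29). *Cox17*, a copper chaperone that also lies on chromosome 16, was the most raised (1.12 ± 0.12 and 1.31 ± 0.12), while *Coa7* was lower by 0.99 ± 0.059 and 0.78 ± 0.056 on the log2 scale. From ESCs to EpiLCs the same factors had 7 higher and 6 lower in Neg and 6 higher and 7 lower in 3xKD, with medians of −0.18 and −0.25 that had the sign of the subunits' medians. Of 9 complex III assembly factors, 1 was higher and 2 lower in 3xKD than in Neg ESCs, and 3 were lower in 3xKD EpiLCs. For complex V, 2 of 6 assembly factors were lower in 3xKD ESCs and 3 in 3xKD EpiLCs, and 0 were higher.

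The 6 mitochondrially encoded subunits of complexes III, IV and V had 0 members that passed in either comparison between states, with medians of −0.18 in Neg and −0.02 in 3xKD. In 3xKD ESCs *mt-Cytb*, the cytochrome b of complex III, was lower (−0.74 ± 0.11, adjusted p = 2.34e-05) and 1 gene was higher. The 4 nuclear genes of complex II had 2 lower in Neg EpiLCs, 4 lower in 3xKD EpiLCs and 3 higher in 3xKD ESCs. Of 12 regulators of respiratory chain genes, 4 rose and 2 fell from ESCs to EpiLCs in Neg, 3 rose and 2 fell in 3xKD, and 2 were higher and 5 lower in 3xKD than in Neg in each state. *Ppargc1b*, a coactivator of mitochondrial biogenesis, was higher in 3xKD by 0.89 ± 0.090 in ESCs and 1.02 ± 0.089 in EpiLCs. *Tfb2m*, a mitochondrial transcription factor, was lower in 3xKD ESCs (−1.28 ± 0.083, adjusted p = 2.9e-09).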

How the data were processed

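Single-end reads were trimmed by the authors (Trim Galore 0.6.7), aligned to GRCm39 (STAR 2.7.9a, Ensembl 111) and quantified per transcript (Salmon 1.10.1). The deposited tables give the authors' estimated counts as Salmon returned them, and TPM scaled by the authors' Salmon run for effective length and library. Effective lengths and the transcript-to-gene table (other values) were used as deposited; effective lengths were the same in all 12 libraries. The library kit marks strand, but the strand setting of the quantifier is not given in the sources used here, and 26 members overlap a gene on the opposite strand.

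For each gene the estimated counts of its transcripts were added up and rounded. Genes with at least 10 counts were fitted with edgeR 4.0.16 in R 4.3.3 (TMM, quasi-likelihood, 4 group means over all 12 libraries). The study used DESeq2, which was an alternative here (1.42.0). Passing means a Benjamini-Hochberg adjusted p under 0.01 over all genes tested; the fold limit is 0.58 in absolute log2. The standard error is the log2 fold change divided by the square root of F. Medians and counts over members are descriptions with no test. Near-identical copies were sought with BLAST 2.17.0+ (identity of 95% over 50% of a transcript). Gene positions came from GENCODE M39, matched by gene ID for 56620 of 57180 genes, and promoters from RefSeq. Promoters of the remaining 14 symbols were not analysed here. Members and gene lists were chosen with earlier results of these data known. Named members were the 5 with the largest passing change per direction and pairwise comparison among those above 1 CPM, all isoform families, *Atp5if1*, *Cycs*, *Cyc1* and members whose 3xKD effect differed between states. The study describes its replicates as biological triplicates in general, and the labels name no separate cultures, so that p-values measure the spread between these libraries. The scripts were tested on simulated data. Simulated log2 changes of 0.3 were recovered in 16.7% to 21.2% of cases in the pairwise comparisons, and in 6.06% for the difference between states. A member that did not pass may therefore still have changed. Replicate numbers did not pair libraries, with 0 of 18 same-number correlations above 0.1. Alternatives were other normalizations, filters, tests, transcript-length offsets, a replicate block and leaving out each library.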

Additional observations from a re-analysis of the deposited data

Results flagged for a closer look

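For 6 members the change in 3xKD against Neg differed between EpiLCs and ESCs by an interaction test over all 12 libraries (edgeR, adjusted p under 0.01), as did 8.89% (lower) and 7.95% (higher) of all genes above 1 CPM. The count of 6 was 2 with transcript-length offsets or library size alone and 12 without 3xKD EpiLCs replicate 3. Given as the log2 change in EpiLCs less that in ESCs, the values were −0.35 for *Atp5f1c*, −0.31 for *Cyc1*, −0.31 for *Atp5mc1*, −0.27 for *Atp5pb*, −0.22 for *Atp5f1a* and 0.77 for *Cox6b2*. The first 5 genes were higher in 3xKD ESCs by 0.19 to 0.38, and of these only *Atp5f1a* was also called higher in 3xKD EpiLCs (0.17). *Cox6b2* was called higher in both states.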

How the results depend on the processing

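Of the alternatives run for single members, 1496 values stayed on the same side of the threshold, 34 lost a call, 19 gained one and 1 turned, that of *Cox6b1* in 3xKD against Neg ESCs with transcript-length offsets (−0.087). Upper-quartile factors moved the members' median to −0.4 for EpiLCs against ESCs in 3xKD and to −0.257 in Neg, and the counts past both limits to 8 and 6. Transcript-length offsets moved the median in Neg to −0.266, the count for 3xKD against Neg EpiLCs from 10 to 6 and that for the difference between states from 6 to 2. Library size alone gave 2 members and a median of −0.085 for that difference, and upper-quartile factors gave 10. An adjusted p under 0.05 gave 16 members for 3xKD against Neg EpiLCs (12 higher, 4 lower) and 11 for the difference. The cause of these moves was not tested.

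Leaving out each library in turn gave 19 to 20 members past the threshold for 3xKD against Neg ESCs, 10 to 12 for EpiLCs, 26 to 31 for the states in Neg, 35 to 38 in 3xKD and 5 to 12 for the difference. Counts past both limits ran from 3 to 5, 2 to 3, 7 to 11 and 9 to 16. Medians ran from 0.186 to 0.227, 0.026 to 0.093, −0.343 to −0.274, −0.504 to −0.447 and −0.205 to −0.118. With the replicate block the counts past the threshold were 21, 11, 29, 37 and 6, none moved by 1.5 times, and the replicate numbers did not pair the libraries. Counting error limits the members with few counts, *Cox4i2*, *Cox6a2*, *Cox8b* and *Cox8c*. In ratios of TPM, added after seeing the data, the members' median for 3xKD against Neg EpiLCs was −0.142, and 0.007 after the median of all genes above 1 CPM was subtracted. The other 3 medians kept their sign both ways.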
